A study of Mus musculus with 12 samples.

Results

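Pancreatic islets that combined a human islet amyloid polypeptide transgene with loss of BACE2 were compared with wild type islets, the comparison that holds both genetic changes at once. The tested arrays were the 3 labelled with the genotype hIAPP-TgxBACE2-KO, set against the 3 wild type arrays, which is 6 of the 12 Affymetrix mouse arrays in the study. The remaining 6 arrays were 3 with the transgene alone (hIAPP-Tg) and 3 with loss of BACE2 alone (BACE2-KO), and they entered only the shared estimate of spread and the side-by-side values. All groups, wild type included, carried the strain name B6;129P2-Bace2tm1Bdes/J in the labels and came from mice aged 12 weeks on standard chow. Neither the promoter that drives the transgene nor the number of mice behind an array is stated in the sources used here, and the p-values therefore cover array-to-array spread, which may be technical. Genetic background bred along with either change cannot be told apart from the change itself. Of 17097 genes with a probe set that names 1 gene, 12825 lay above a filter on mean level and were tested.

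Islet amyloid polypeptide is a small hormone that beta cells store and secrete with insulin. The human form aggregates into amyloid, which the mouse form does not, so mice need the human gene to develop islet amyloid. BACE2 is an aspartyl protease related to the Alzheimer's disease enzyme BACE1, is abundant in beta cells, and cleaves membrane proteins there. Beta cells make large amounts of secretory protein and are sensitive to stress of the endoplasmic reticulum, whose PERK branch acts through the transcription factor ATF4. Beta cells are also defined by genes they keep low, often called disallowed genes.

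Levels are log2 values on a scale shared by all arrays, with array medians from 4.22 to 4.35. Each array correlated with the others of its group at a mean r of 0.984 to 0.992 over the genes tested. Islet identity was plain on all 6 arrays. Ins2, the main mouse insulin gene, read 13.98, 13.97 and 13.96 in hIAPP-TgxBACE2-KO arrays and 13.97, 13.97 and 14.03 in wild type arrays, at the top of each array's range. There a difference cannot be measured. Gcg, the glucagon gene of alpha cells, differed by 0.07 log2 (standard error, SE, 0.07, adjusted p = 0.814). Digestive enzyme transcripts of acinar cells were present on every array and varied widely, as given below.

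Bace2 itself, the targeted gene, was measured at 10.65, 10.95 and 10.94 in hIAPP-TgxBACE2-KO arrays and at 11.18, 10.91 and 11.18 in wild type arrays. The groups overlapped, and the difference was -0.24 (SE 0.10, adjusted p = 0.539). The other probe sets named Bace2 gave -0.16 and -0.37, and the difference was -0.14 without hIAPP-TgxBACE2-KO replicate 1. It is not known here if the probes fall inside the deleted segment, so Bace2 does not check the labels. Iapp and Ins1 have no probe set that names only them and were not analysed here.

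Between hIAPP-TgxBACE2-KO and wild type islets, 17 genes differed at an adjusted p under 0.05, which is 0.133% of the genes tested. Of these, 9 were higher (0.0702%) and 8 lower (0.0624%) in hIAPP-TgxBACE2-KO islets. At an unadjusted p under 0.05 there were 1081 genes (8.43%), 498 higher (3.88%) and 583 lower (4.55%). The 3 arrays of one group lay wholly above or below those of the other in 1909 genes (14.9%), among them all 17 called genes. The median difference over all genes was -0.00, and 49.2% of genes lay above 0. A difference of at least 1 log2 was found in 84 genes, 59 higher and 25 lower, of which 9 were called. The smallest called difference was 0.52 log2.

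The count of called genes rested on few arrays. It was 3, 0 and 4 without hIAPP-TgxBACE2-KO replicates 1, 2 and 3, and 6, 6 and 10 without wild type replicates 1, 2 and 3. Without hIAPP-TgxBACE2-KO replicate 2, when no gene was called by limma, 864 genes (6.74%) still had an unadjusted p under 0.05 and the smallest adjusted p was 0.062. Leaving out BACE2-KO replicate 3, which is not part of the comparison, gave 11 genes, and a fit of only the 6 arrays compared gave 4. No called gene changed direction in any refit.

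**Figure D1:**
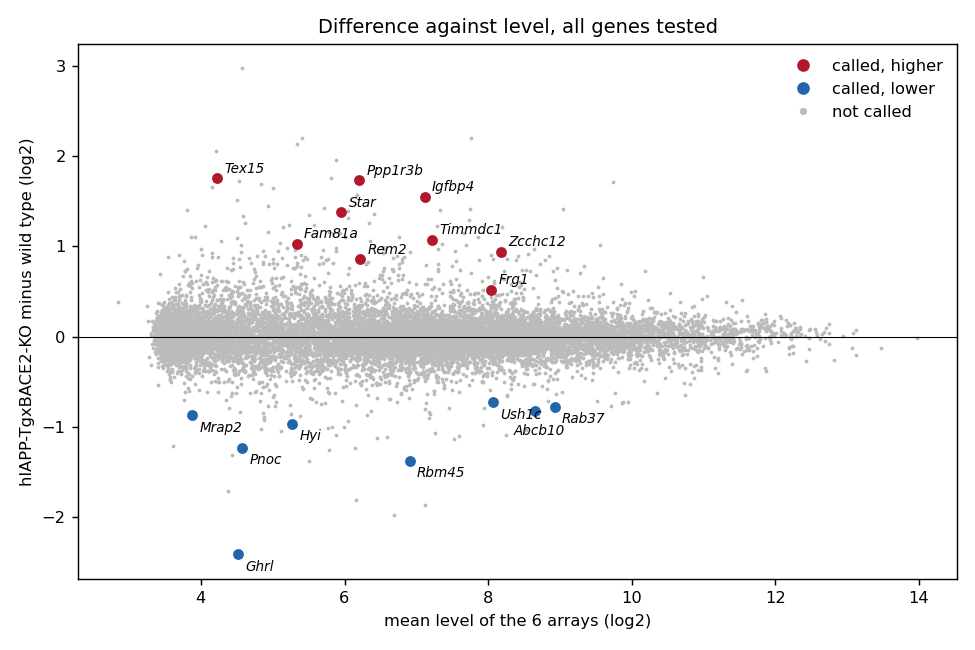
Each point is 1 of the 12825 genes tested, with its mean level over the 6 arrays (log2) on the horizontal axis and hIAPP-TgxBACE2-KO minus wild type (log2) on the vertical axis; the 17 called genes are marked and named. The called genes run from 1.75 log2 higher (Tex15) to -2.41 (Ghrl), and most other points with large differences are uncalled.

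Among the genes higher in hIAPP-TgxBACE2-KO islets, 4 of the 9 lie on chromosome 8. Tex15 (probe set 1420719_PM_at), a germ cell gene required for meiotic recombination in testis, read 5.28, 4.87 and 5.16 in hIAPP-TgxBACE2-KO arrays and 3.47, 3.49 and 3.09 in wild type arrays. Its difference was 1.75 log2 (SE 0.25, adjusted p = 0.0251), a fold of 3.37. The wild type mean of 3.35 ± 0.23 (SD, n = 3) lies below the filter level of 3.43, near the bottom of the scale, so the size of that fold is not resolved. Ppp1r3b (1436590_PM_at), which brings protein phosphatase 1 to glycogen, read 7.09, 7.08 and 7.04 in hIAPP-TgxBACE2-KO arrays and 4.80, 5.49 and 5.73 in wild type arrays. This is 1.73 log2 higher (SE 0.24, adjusted p = 0.0228), with tight values in the hIAPP-TgxBACE2-KO arrays and a spread of almost 1 log2 unit in wild type.

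Star (1418728_PM_at) encodes the protein that carries cholesterol into mitochondria for steroid synthesis. It read 6.41, 7.11 and 6.41 in hIAPP-TgxBACE2-KO arrays and 4.92, 5.24 and 5.65 in wild type arrays, a difference of 1.37 (SE 0.23, adjusted p = 0.0418), and its other probe sets gave 0.59 and 1.49. Frg1 (1417253_PM_at), a nuclear protein linked to RNA processing, had the smallest called difference. Its arrays read 8.36, 8.28 and 8.26 in hIAPP-TgxBACE2-KO and 7.85, 7.76 and 7.73 in wild type islets, 0.52 higher (SE 0.08, adjusted p = 0.0358). Both genes were separated fully between the groups.

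The other 5 higher genes are spread over the genome. Igfbp4 (1437405_PM_a_at, chromosome 11), a secreted protein that binds insulin-like growth factors and is often listed among the genes beta cells keep low, read 7.92, 7.85 and 7.90 in hIAPP-TgxBACE2-KO arrays and 6.35, 6.91 and 5.76 in wild type arrays. The difference was 1.55 (SE 0.22, adjusted p = 0.0251). Its 5 other probe sets were also higher, by 0.40 to 2.03. Timmdc1 (1420329_PM_at, chromosome 16), an assembly factor of respiratory complex I, read 7.59, 7.76 and 7.93 in hIAPP-TgxBACE2-KO arrays and 6.77, 6.63 and 6.66 in wild type arrays. At 1.07 log2 (SE 0.12, adjusted p = 0.00817) it shared the smallest adjusted p with Rbm45.

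Fam81a (1425213_PM_at, chromosome 9) read 5.83, 5.79 and 5.92 in hIAPP-TgxBACE2-KO arrays and 4.65, 4.72 and 5.09 in wild type arrays, 1.03 higher (SE 0.16, adjusted p = 0.0259). Zcchc12 (1428434_PM_at, X chromosome), a zinc finger coactivator in bone morphogenetic protein signalling, read 8.37, 8.89 and 8.70 in hIAPP-TgxBACE2-KO arrays and 7.35, 7.92 and 7.87 in wild type arrays, 0.94 higher (SE 0.16, adjusted p = 0.0418). Rem2 (1448860_PM_at, chromosome 14), a small GTPase that restrains voltage-gated calcium channels, read 6.67, 6.49 and 6.78 in hIAPP-TgxBACE2-KO arrays and 5.66, 5.83 and 5.89 in wild type arrays. It was 0.85 higher (SE 0.14, adjusted p = 0.0348). None of the 9 higher genes had an array that overlapped the other group.

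The 8 lower genes included a pair of peptide hormone genes. Ghrl (1448980_PM_at, chromosome 6), which encodes ghrelin and marks the rare epsilon cells of the islet, read 3.61, 2.93 and 3.39 in hIAPP-TgxBACE2-KO arrays and 6.74, 5.31 and 5.12 in wild type arrays. The difference of -2.41 (SE 0.37, adjusted p = 0.0259) was the largest in size among the called genes. The hIAPP-TgxBACE2-KO mean of 3.31 ± 0.35 (SD, n = 3) lies under the filter level, so the size is not resolved, and whole islets do not tell fewer cells of a type from less RNA per cell. Pnoc (1425892_PM_a_at, chromosome 14), the precursor of the neuropeptide nociceptin, read 3.97, 3.75 and 4.16 in hIAPP-TgxBACE2-KO arrays and 5.08, 5.06 and 5.45 in wild type arrays. It was lower by 1.24 log2 units (difference -1.24, SE 0.16, adjusted p = 0.0217).

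Rbm45 (1437904_PM_at, chromosome 2), an RNA-binding protein, was the most tightly separated of the lower genes. It read 6.21, 6.25 and 6.21 in hIAPP-TgxBACE2-KO arrays and 7.65, 7.63 and 7.51 in wild type arrays, a difference of -1.37 (SE 0.15, adjusted p = 0.00817). Hyi (1425201_PM_a_at, chromosome 4), named hydroxypyruvate isomerase, read 4.85, 4.67 and 4.85 in hIAPP-TgxBACE2-KO arrays and 5.85, 5.71 and 5.70 in wild type arrays, a difference of -0.96 (SE 0.14, adjusted p = 0.0259). Mrap2 (1436274_PM_at, chromosome 9), an accessory protein of melanocortin receptors, read 3.50, 3.46 and 3.37 in hIAPP-TgxBACE2-KO arrays and 4.08, 4.53 and 4.34 in wild type arrays, a difference of -0.87 (SE 0.13, adjusted p = 0.0259). Its hIAPP-TgxBACE2-KO values sit at the filter level.

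Rab37 (1450167_PM_at, chromosome 11), a small GTPase of secretory granules, read 8.49, 8.46 and 8.66 in hIAPP-TgxBACE2-KO arrays and 9.58, 9.13 and 9.24 in wild type arrays, a difference of -0.78 (SE 0.12, adjusted p = 0.0259) that its other probe set gave as well. Abcb10 (1416402_PM_at, chromosome 8), a transporter of the mitochondrial inner membrane, read 8.16, 7.93 and 8.63 in hIAPP-TgxBACE2-KO arrays and 9.17, 9.01 and 9.02 in wild type arrays, a difference of -0.83 (SE 0.14, adjusted p = 0.0473). Its other probe sets gave -1.06 and -0.50. Ush1c (1450001_PM_a_at, chromosome 7), the scaffold protein harmonin, read 7.67, 7.79 and 7.64 in hIAPP-TgxBACE2-KO arrays and 8.51, 8.28 and 8.5 in wild type arrays, a difference of -0.73 (SE 0.12, adjusted p = 0.0418). The 8 lower genes, like the higher ones, had no overlapping array.

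**Figure D2:**
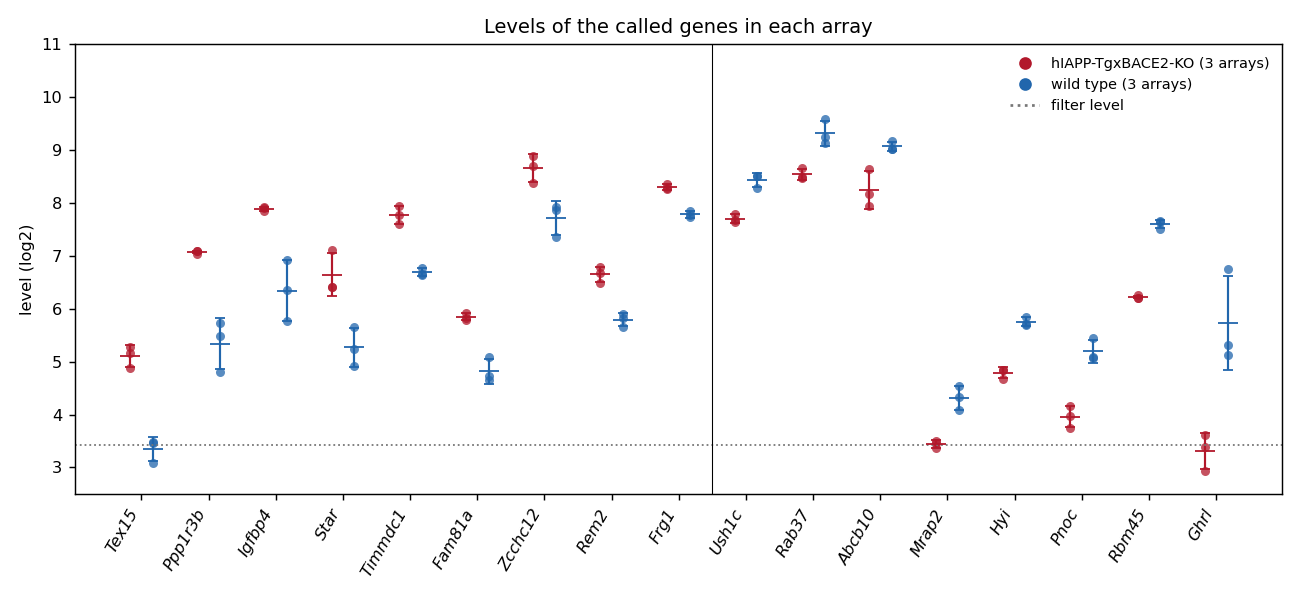
Levels (log2) of the 17 called genes in the 3 hIAPP-TgxBACE2-KO and the 3 wild type arrays; points are arrays, bars the mean ± SD (n = 3), genes left of the vertical line were higher and those right of it lower in hIAPP-TgxBACE2-KO islets, and the dotted line is the filter level of 3.43. Tex15 in wild type and Ghrl and Mrap2 in hIAPP-TgxBACE2-KO islets lie at or near that line.

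Calls differed in how many refits they passed when each of the 12 arrays was left out in turn. Rbm45 and Timmdc1 passed in 11 of 12 and missed only without hIAPP-TgxBACE2-KO replicate 2, with adjusted p = 0.062 for Rbm45 and 0.0659 for Timmdc1 and differences of -1.39 and 1.07. Pnoc passed in 10, and Ppp1r3b and Igfbp4 in 8. Fam81a, Mrap2, Rab37 and Ghrl passed in 7, and Tex15 and Hyi in 6. Rem2, Frg1, Star and Ush1c passed in 3, Abcb10 in 1 and Zcchc12 in 0. Without hIAPP-TgxBACE2-KO replicate 1, Rbm45 and Timmdc1 alone of the 17 passed, and without replicate 3 Pnoc and Abcb10 passed beside them. Without wild type replicate 1 the genes that passed among the 17 were Rbm45, Timmdc1, Pnoc, Ppp1r3b, Mrap2 and Ghrl, and without wild type replicate 2 they were Rbm45, Timmdc1, Pnoc, Igfbp4 and Rab37, with Fmo5, which is not 1 of the 17. Differences themselves moved little: Zcchc12, with no refit passed, ran from 0.76 to 1.08, and Ghrl from -2.72 to -1.91.

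Which of the single changes the same genes followed was read from all 3 mutant genotypes against the same wild type arrays. The comparisons share those 3 arrays, so their values are given side by side. Ppp1r3b was 1.73 above wild type in hIAPP-TgxBACE2-KO, 0.10 in hIAPP-Tg and 1.59 in BACE2-KO islets. Star gave 1.37 in hIAPP-TgxBACE2-KO, -0.34 in hIAPP-Tg and 1.36 in BACE2-KO islets, and Frg1 0.52, 0.05 and 0.52 in the same order. For Rbm45 the values were -1.37, -0.59 and -1.47, and for Ghrl -2.41, -0.69 and -2.60.

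The single changes gave other values for other genes. Tex15 was 1.75 higher in hIAPP-TgxBACE2-KO and 2.42 higher in BACE2-KO islets, and Timmdc1 1.07 and 1.53. Hyi stood at -0.96 in hIAPP-TgxBACE2-KO, 0.54 in hIAPP-Tg and -0.86 in BACE2-KO islets. Ush1c differed by -0.73 in hIAPP-TgxBACE2-KO, -0.06 in hIAPP-Tg and -0.33 in BACE2-KO islets. Igfbp4 was above wild type in each, by 1.55, 0.55 and 1.07. Whether both changes together differ from the sum of the single ones is the interaction, which was tested in the same fit. Its adjusted p was 1 for each of the 17 genes, with estimates such as -0.87 (SE 0.35) for Tex15, 0.69 (SE 0.21) for Rbm45 and -0.65 (SE 0.20) for Hyi, so a departure of that size was not resolved.

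**Figure D3:**
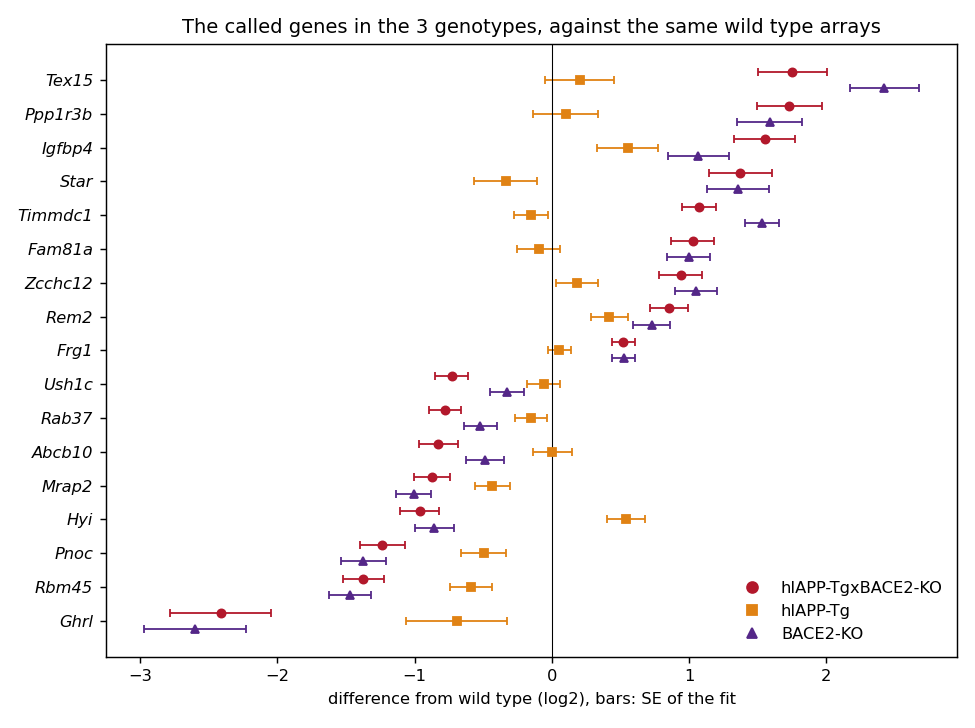
Difference from wild type (log2) of the 17 called genes in hIAPP-TgxBACE2-KO, hIAPP-Tg and BACE2-KO islets, with bars for the SE of the fit; all 3 comparisons use the same 3 wild type arrays. Ppp1r3b stands at 1.73, 0.10 and 1.59, and Ghrl at -2.41, -0.69 and -2.60, in that order of genotypes.

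Sema5a, a semaphorin that guides axons, was near its wild type level in hIAPP-TgxBACE2-KO islets and far above it in hIAPP-Tg islets. Chosen after its values were seen, it read 3.70, 3.55 and 3.55 in hIAPP-TgxBACE2-KO arrays and 3.50, 3.62 and 3.43 in wild type arrays, a difference of 0.08 (SE 0.32, adjusted p = 0.967). Its mean was 8.19 in hIAPP-Tg and 4.03 in BACE2-KO islets. The interaction was -5.11 (adjusted p = 0.000722) and was the only 1 called among all genes tested (0.0078%). Snhg18, a noncoding RNA gene chosen in the same way, differed by -0.12 between hIAPP-TgxBACE2-KO and wild type islets and had means of 8.37 in hIAPP-Tg and 6.28 in BACE2-KO islets.

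The called genes were unevenly placed. Chromosome 8 held 5 of the 17, and 5.35% of the genes tested. The stretch of chromosome 8 that runs between the outermost of Tex15, Ppp1r3b, Star and Frg1 held 59 tested genes, of which those 4 were called. In that stretch 32 of the 59 were higher and the median difference was 0.02, and 15 had an unadjusted p under 0.05, 10 of them higher. The stretch was set by the called genes, so these counts only describe it. On the rest of chromosome 8, 1 of 627 genes was called (Abcb10) and 39 had an unadjusted p under 0.05. Near Bace2 on chromosome 16, up to 24 tested genes on each side were read, 32 in all because the chromosome ended sooner on one side. None of these was called by limma, and 5 had an unadjusted p under 0.05 (Ripply3, Kcnj6, Sh3bgr, Mx2 and Tmprss2). Timmdc1, also on chromosome 16, is separated from Bace2 by 151 tested genes.

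The 10 uncalled genes with the smallest p were 3 higher and 7 lower ones. Chl1, a neural cell adhesion molecule, read 6.08, 5.64 and 5.77 in hIAPP-TgxBACE2-KO arrays and 3.91, 4.65 and 4.0 in wild type arrays, a difference of 1.64 (SE 0.29, adjusted p = 0.064), but its 3 other probe sets, all with mean levels under the filter, gave 0.15, 0.28 and -0.21 and the mean of its sets gave 0.47. It stood at 0.22 in hIAPP-Tg and 0.30 in BACE2-KO islets. Mlxipl, the glucose-sensing transcription factor ChREBP, read 9.39, 9.59 and 9.52 in hIAPP-TgxBACE2-KO arrays and 10.61, 10.16 and 9.93 in wild type arrays, a difference of -0.73 (adjusted p = 0.137). Galc, a lysosomal galactosylceramidase, differed by -1.07 (adjusted p = 0.104), with 0.26 and -0.04 on its other probe sets and -0.28 as a mean of its sets. Fmo5, a flavin monooxygenase, differed by -1.02 (adjusted p = 0.104), with 0.09 and -0.31 on its other sets and -0.42 as a mean of its sets. Abcg1, a sterol exporter, differed by -0.34 (adjusted p = 0.104), and by -0.35 on its other set. Crystallin-related Cryl1 differed by -1.10 (-0.81, -1.10 and 0.17 on its other sets), the adhesion receptor Adgrb3 by -1.11 and the ADAM family member Adam22 by -0.65 (-0.17 on its other set). Pdgfrl, another chromosome 8 gene, differed by 0.58 and the LIM protein gene Crip1 by 0.76. In each of the 10 the groups did not overlap.

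Lists of genes for islet cell types, stress responses and metabolism were then read by counts and medians. No list was tested as a set, and each median is set beside the -0.00 median of all genes. A count of non-overlapping members is read against 6.68% of all genes higher and 8.2% lower. Only 6 members across these lists were called, so most of what follows is a description of uncalled differences. They were Igfbp4, Ppp1r3b, Timmdc1 and Star among those higher, and Ghrl and Pnoc among those lower. For some lists the median is also given with the stellate covariate, a fit with the array mean of the stellate cell and fibroblast list as a further term, which was chosen after the data were seen. Col1a1, Col1a2, Col3a1 and Sparc are listed there and among the extracellular matrix genes, and Pdgfra there and among the disallowed genes. The medians of those lists in that fit are thus not independent of the covariate.

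**Figure D4:**
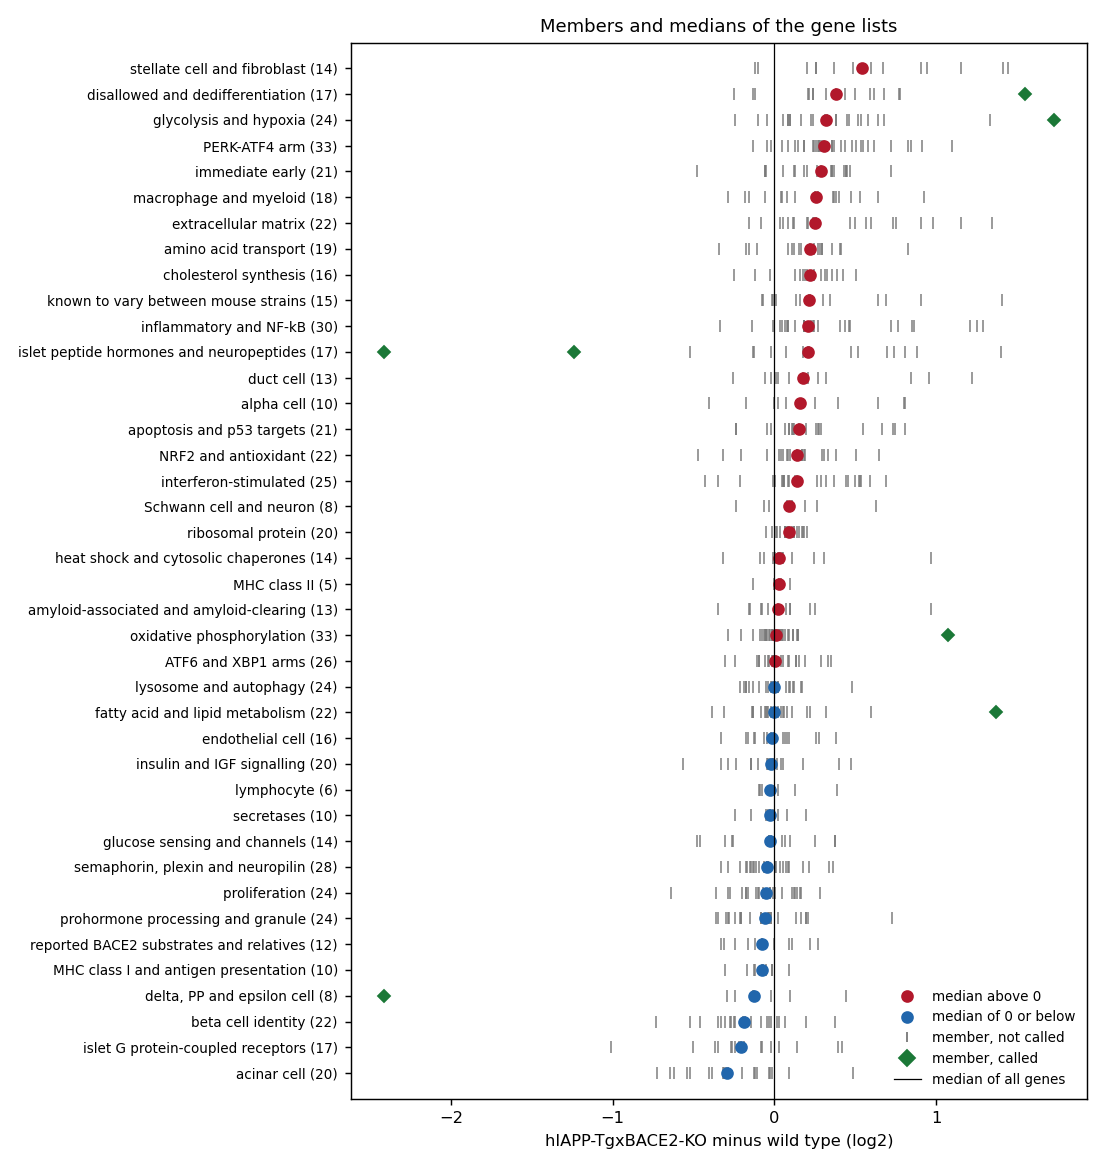
Gene lists ordered by their median difference, hIAPP-TgxBACE2-KO minus wild type (log2), with the number of tested members in parentheses; ticks are uncalled members, diamonds called members, circles medians, and the vertical line the median of all genes. Medians run from -0.29 (acinar cell) to 0.54 (stellate cell and fibroblast).

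The PERK-ATF4 arm leaned higher in hIAPP-TgxBACE2-KO islets. Of 33 tested members out of 37 listed, 30 were higher and 3 lower, with a median of 0.31. None was called by limma, while 14 had an unadjusted p under 0.05, all higher, and 11 did not overlap, again all higher. The list's mean level was 8.32, 8.63 and 8.61 in hIAPP-TgxBACE2-KO arrays and 7.90, 8.21 and 8.32 in wild type arrays, so the lowest hIAPP-TgxBACE2-KO array met the highest wild type one. The same mean was 8.39, 8.58 and 8.64 in BACE2-KO arrays and 8.05, 8.26 and 8.30 in hIAPP-Tg arrays, so the lean was not particular to the combination. The median stayed between 0.24, without wild type replicate 1, and 0.45, without hIAPP-TgxBACE2-KO replicate 1, and was 0.34 with the stellate covariate.

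Psph, the enzyme of the final step of serine synthesis, read 9.21, 9.19 and 9.24 in hIAPP-TgxBACE2-KO arrays and 7.79, 8.47 and 8.84 in wild type arrays, a difference of 0.85 (SE 0.23, adjusted p = 0.289). Psat1, a transaminase of the same pathway, read 8.90, 8.93 and 9.20 in hIAPP-TgxBACE2-KO arrays and 7.26, 8.30 and 8.73 in wild type arrays, a difference of 0.91 (adjusted p = 0.335) that was 0.50 without wild type replicate 1. Without that array Psph was at 0.56. Phgdh, the enzyme of the entry step of this pathway, a list member outside the naming rule and chosen after its values were seen, read 8.30, 8.71 and 8.80 in hIAPP-TgxBACE2-KO arrays and 7.41, 8.16 and 8.5 in wild type arrays, a difference of 0.58 (SE 0.31, adjusted p = 0.649). Wild type replicate 1 was the lowest array for all 3 genes. The groups were separate for Psph and Psat1 and overlapped for Phgdh.

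Slc7a3, a carrier of cationic amino acids, read 6.65, 6.83 and 6.75 in hIAPP-TgxBACE2-KO arrays and 5.76, 6.07 and 5.91 in wild type arrays, a difference of 0.83 (SE 0.24, adjusted p = 0.304). Its mean differed from wild type by -0.74 in hIAPP-Tg and by 1.13 in BACE2-KO islets. Trib3, a pseudokinase induced by ATF4, differed by 1.10 (SE 0.32, adjusted p = 0.318), Eif4ebp1, a brake on translation, by 0.44 (adjusted p = 0.328), and Ddit4, an inhibitor of mTOR signalling, by 0.54 (adjusted p = 0.335). Trib3 overlapped between the groups, with 7.96, 8.58 and 8.68 in hIAPP-TgxBACE2-KO arrays and 6.62, 7.23 and 8.08 in wild type arrays.

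ATF4 binds composite sites whose best known form is TGATGCAA, and promoters of the list's members were searched for these 8 letters on both strands in the 250 bases before the gene start. Of 30 members with a RefSeq promoter, 7 held it (23.3%), against 248 of 27025 genes with a promoter (0.918%). The list was made of genes already linked to this arm, so the higher share describes the list and not these islets. The windows below, of 100 bases from RefSeq on GRCm38.p6 and given 5′ to 3′ on the gene's strand, are shown for the 6 of these genes measured here, chosen for the motif alone, with the motif or its reverse complement in capitals. A match is a description of these letters and not of binding.
Atf3, chr1:191183390-191183489: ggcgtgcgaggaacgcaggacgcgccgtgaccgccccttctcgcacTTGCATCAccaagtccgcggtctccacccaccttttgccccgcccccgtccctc
Chac1, chr2:119351003-119351102: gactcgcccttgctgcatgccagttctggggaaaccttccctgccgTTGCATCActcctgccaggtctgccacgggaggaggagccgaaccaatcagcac
Slc7a11, chr3:50443626-50443725: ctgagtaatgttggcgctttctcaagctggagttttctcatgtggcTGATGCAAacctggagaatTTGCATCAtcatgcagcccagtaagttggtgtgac
Fgf21, chr7:45615576-45615675: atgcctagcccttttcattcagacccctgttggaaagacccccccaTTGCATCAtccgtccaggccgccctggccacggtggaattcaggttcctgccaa
Nupr1, chr7:126625527-126625626: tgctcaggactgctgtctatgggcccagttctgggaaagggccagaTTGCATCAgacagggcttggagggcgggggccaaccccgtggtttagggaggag
Vldlr, chr19:27216774-27216873: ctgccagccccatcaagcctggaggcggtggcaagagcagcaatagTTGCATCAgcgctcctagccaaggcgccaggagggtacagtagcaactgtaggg

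The 6 genes with these sequences were uncalled. Chac1, a glutathione-degrading enzyme, read 10.11, 10.38 and 10.42 in hIAPP-TgxBACE2-KO arrays and 9.35, 9.95 and 10.10 in wild type arrays, a difference of 0.50 (SE 0.20, adjusted p = 0.52) with the groups just separate. The stress transcription factor gene Atf3 differed by 0.36 (SE 0.17), the hormone gene Fgf21 by 0.36 (SE 0.17), the cystine carrier gene Slc7a11, which holds the motif on both strands, by 0.29 (SE 0.16), and the lipoprotein receptor gene Vldlr by 0.18 (SE 0.10). Nupr1, a stress-induced chromatin protein that acinar cells also express, read 11.37, 11.58 and 11.19 in hIAPP-TgxBACE2-KO arrays and 12.26, 11.61 and 10.67 in wild type arrays, a difference of -0.13 (SE 0.31), and was the only 1 of the 6 that was lower.

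The other arms of the unfolded protein response did not lean one way. Of 26 members of the ATF6 and XBP1 arms, 13 were higher and 13 lower, with a median of 0.00 (0.11 with the stellate covariate), and none was called by limma (1 had an unadjusted p under 0.05). That member, Derl1, which helps move misfolded proteins out of the endoplasmic reticulum, differed by 0.35 (adjusted p = 0.289). Of 14 heat shock genes, 10 were higher with a median of 0.03, 0 were called and 0 had an unadjusted p under 0.05.

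Apoptosis and p53 target genes were higher in 17 of 21 tested members, with a median of 0.15, 0 calls, and 6 at an unadjusted p under 0.05, all higher. The median was 0.06 with the stellate covariate. The list's mean level was 7.04, 7.30 and 7.14 in hIAPP-TgxBACE2-KO arrays and 6.91, 6.93 and 6.92 in wild type arrays, so the array means did not overlap. Other lists were separate as well, among them ribosomal protein genes (11.688 to 11.833 against 11.644 to 11.673 in wild type). MHC class I genes were separate in the lower direction (9.005 to 9.033 against 9.037 to 9.148 in wild type). Cdkn1a, which encodes the cell cycle inhibitor p21, read 8.59, 9.28 and 8.83 in hIAPP-TgxBACE2-KO arrays and 7.93, 8.17 and 8.39 in wild type arrays, a difference of 0.74 (SE 0.17, adjusted p = 0.237). Phlda3, a p53 target that restrains Akt, differed by 0.81 (adjusted p = 0.324), Casp12, a caspase of the endoplasmic reticulum, by 0.55 (adjusted p = 0.289), and the survival gene Bcl2 by 0.67 (adjusted p = 0.453). Cdkn1a stood at 0.08 in hIAPP-Tg and 0.59 in BACE2-KO islets, and Phlda3 at 0.01 and 0.10.

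Antioxidant genes, many of them targets of NRF2, were higher in 18 of 22, with a median of 0.14, 0 calls, and 6 at an unadjusted p under 0.05, and the median was 0.07 with the stellate covariate. Their mean level was 9.36, 9.42 and 9.33 in hIAPP-TgxBACE2-KO arrays and 9.27, 9.23 and 9.22 in wild type arrays. Srxn1, which restores oxidised peroxiredoxins, differed by 0.31 (adjusted p = 0.367), the quinone reductase gene Nqo1 by 0.51 (adjusted p = 0.438) and Gpx4, which reduces lipid peroxides, by 0.33 (adjusted p = 0.444). Hmox1, the haem oxygenase, differed by 0.65 with overlapping groups, and by 0.33 without wild type replicate 1 and 0.41 without hIAPP-TgxBACE2-KO replicate 2. Sod1 differed by 0.19 on the probe set used and by -0.01 on the probe set of highest variance.

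Genes that beta cells normally keep low, together with dedifferentiation markers, were higher in 14 of 17 with a median of 0.38, which was 0.24 without hIAPP-TgxBACE2-KO replicate 2. One member, Igfbp4, was called (1 of 17, against 0.0702% of all genes called higher), and 4 had an unadjusted p under 0.05. The list's mean level was 6.08, 6.30 and 6.12 in hIAPP-TgxBACE2-KO arrays and 5.56, 5.94 and 5.76 in wild type arrays. Oat, an ornithine aminotransferase, read 8.0, 7.66 and 7.99 in hIAPP-TgxBACE2-KO arrays and 6.67, 7.44 and 7.21 in wild type arrays, a difference of 0.78 (SE 0.23, adjusted p = 0.335). Hk2, a hexokinase of high glucose affinity, differed by 0.77 (SE 0.25, adjusted p = 0.36). The groups were separate for both. Some genes of the list are also expressed by fibroblasts, and stellate cell markers were higher in the same arrays, as given below. With the stellate covariate the median was 0.07 and Hk2 differed by 0.21, while Igfbp4 stayed higher in hIAPP-TgxBACE2-KO islets without a call. Whether stellate cell or fibroblast content accounts for the higher values of this list was not tested.

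Beta cell identity genes leaned the other way. Of 22 tested out of 28 listed, 17 were lower and 5 higher, with a median of -0.19, 0 calls, and 3 lower against 1 higher at an unadjusted p under 0.05. The list's mean level was 10.01, 10.20 and 10.28 in hIAPP-TgxBACE2-KO arrays and 10.35, 10.28 and 10.38 in wild type arrays, and these ranges touched. The median was -0.07 without hIAPP-TgxBACE2-KO replicate 1, the lowest array, and -0.04 with the stellate covariate. Apart from Mlxipl, the sulfonylurea receptor gene Abcc8 read 10.36, 10.75 and 10.79 in hIAPP-TgxBACE2-KO arrays and 11.08, 11.07 and 11.13 in wild type arrays, a difference of -0.46 (SE 0.15, adjusted p = 0.36). The transcription factor gene Isl1 differed by -0.33 (adjusted p = 0.568), the zinc transporter gene Slc30a8 by -0.24 (adjusted p = 0.647), and Ucn3, a peptide of mature beta cells, by -0.52 (adjusted p = 0.612, and -0.27 without hIAPP-TgxBACE2-KO replicate 1). Trpm5, a cation channel, was higher by 0.38 (adjusted p = 0.571).

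Granule genes were lower in most members, while channel genes divided. Of 24 genes of prohormone processing and the granule, 17 were lower with a median of -0.06, 0 calls, and 4 lower against 1 higher at an unadjusted p under 0.05. The median was -0.13 without hIAPP-TgxBACE2-KO replicate 3 and -0.03 without replicate 1. Syt7, a calcium sensor of exocytosis, differed by -0.36 (SE 0.10, adjusted p = 0.304), the granule membrane protein gene Ptprn2 by -0.35 (adjusted p = 0.401), Rab27a by -0.28 and chromogranin A (Chga) by -0.20. Pam, the peptide-amidating enzyme, went against these at 0.73 (adjusted p = 0.478). Of 14 glucose sensing and channel genes, 8 were lower and 6 higher with a median of -0.03 and 0 calls, and 5 of the lower ones did not overlap. That median changed sign without hIAPP-TgxBACE2-KO replicate 1, to 0.04, and was -0.09 without replicate 2 and -0.01 without replicate 3 or wild type replicate 2 or 3. Scn3a, a sodium channel, differed by -0.48 (adjusted p = 0.445), the calcium channel genes Cacna1d and Cacna1a by -0.26 each, and the glucose transporter gene Slc2a2 by -0.31 (SE 0.22). Cacna1d was 0.11 on its probe set of highest variance.

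Receptor genes were mostly lower without a call. Of 17 islet G protein-coupled receptors, 13 were lower with a median of -0.20 and 0 calls (1 at an unadjusted p under 0.05), 2 higher and 2 lower ones did not overlap, and the galanin receptor gene Galr1 differed by -0.50 (adjusted p = 0.571), or -0.27 without hIAPP-TgxBACE2-KO replicate 2. Without hIAPP-TgxBACE2-KO replicate 1, wild type replicate 1 or wild type replicate 3 that median was -0.08, -0.12 and -0.13. Of 20 insulin and IGF signalling genes, 14 were lower with a median of -0.02 and 0 calls (1 at an unadjusted p under 0.05). That 1 was Irs1, an adaptor of the insulin receptor, which read 6.50, 6.44 and 6.70 in hIAPP-TgxBACE2-KO arrays and 7.11, 7.22 and 7.0 in wild type arrays, a difference of -0.56 (SE 0.13, adjusted p = 0.237).

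In the lists of markers for the other endocrine cell types, Ghrl was the only called member. Of 8 delta, PP and epsilon cell genes, 6 were lower with a median of -0.13 (-0.06 without wild type replicate 1 and 0.03 with the stellate covariate), and Etv1, a transcription factor, differed by 0.44 (adjusted p = 0.326). Pyy, the peptide YY gene, differed by -0.12 and the delta cell factor gene Hhex by -0.29. Of 10 alpha cell genes, 7 were higher with a median of 0.16 (0.06 without hIAPP-TgxBACE2-KO replicate 3), 0 calls and 3 at an unadjusted p under 0.05. The transcription factor genes Irx2, Irx1 and Pou3f4 differed by 0.64, 0.80 and 0.81, and Pou3f4 was highest in hIAPP-TgxBACE2-KO replicate 3 at 5.83, against 4.09 and 4.65 in the other two. Of 17 islet peptide hormones and neuropeptides, 11 were higher with a median of 0.21 (0.10 without hIAPP-TgxBACE2-KO replicate 3 and 0.07 without wild type replicate 1). Ghrl and Pnoc were called lower, 2 of 17 in this list and, for Ghrl, 1 of 8 in the delta, PP and epsilon list, against 0.0624% of all genes. Both lists were chosen with earlier results of these data known, so these counts only describe them.

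Lists of genes that act directly on amyloid or with BACE2 had medians near 0, while single members differed more. Of 10 secretase genes, 7 were lower with a median of -0.03 and 0 calls, and Bace2 was the only member at an unadjusted p under 0.05. Of 12 reported BACE2 substrates and relatives, 8 were lower with a median of -0.07, and 0 were called or had an unadjusted p under 0.05, including the insulin receptor gene Insr at -0.33, Sez6l at -0.31 and Aplp1 at -0.24. Of 13 amyloid-associated and amyloid-clearing genes, 7 were higher with a median of 0.02 (-0.14 with the stellate covariate) and 0 calls (2 at an unadjusted p under 0.05). In that list 1 higher and 2 lower members did not overlap, against 6.68% of all genes higher and 8.2% lower. Gsn, the actin-severing protein gelsolin, read 9.56, 9.87 and 9.92 in hIAPP-TgxBACE2-KO arrays and 10.18, 10.08 and 10.13 in wild type arrays, a difference of -0.35 (SE 0.09, adjusted p = 0.285). Apoe, the lipid carrier apolipoprotein E that macrophages also make, read 6.98, 8.66 and 7.72 in hIAPP-TgxBACE2-KO arrays and 6.87, 6.85 and 6.73 in wild type arrays, a difference of 0.97 (SE 0.41), or 0.53 without hIAPP-TgxBACE2-KO replicate 2.

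Markers of cells other than endocrine cells also differed between the arrays. Stellate cell and fibroblast genes had the highest median of any list, 0.54, with 12 of 14 higher, 0 calls and 4 at an unadjusted p under 0.05. Their mean level was 6.31, 7.15 and 6.38 in hIAPP-TgxBACE2-KO arrays and 5.91, 6.38 and 5.73 in wild type arrays, so replicate 2 was highest in each group and the ranges met. Pdgfrb, the platelet-derived growth factor receptor of pericytes and stellate cells, read 4.91, 5.32 and 5.10 in hIAPP-TgxBACE2-KO arrays and 4.35, 4.39 and 4.57 in wild type arrays, a difference of 0.67 (SE 0.16, adjusted p = 0.242). The matrix proteoglycan gene Dcn differed by 0.94 (SE 0.35) and the intermediate filament gene Vim by 0.49 (SE 0.21). Mfap5, of elastic microfibrils, differed by 1.45 (SE 0.59) and by 0.56 without hIAPP-TgxBACE2-KO replicate 2, where it read 7.43 against 4.34 and 5.21 in the other two.

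Extracellular matrix genes were higher in 20 of 22 with a median of 0.25 and 0 calls (2 at an unadjusted p under 0.05). The median was 0.09 without hIAPP-TgxBACE2-KO replicate 2, 0.44 without replicate 1 and 0.46 without wild type replicate 2. It changed sign to -0.07 with the stellate covariate, a shift partly built in because the lists share members. Postn, a matrix protein of activated fibroblasts, read 6.11, 6.87 and 6.12 in hIAPP-TgxBACE2-KO arrays and 5.48, 5.52 and 4.63 in wild type arrays, a difference of 1.16 (SE 0.38, adjusted p = 0.373). Lox, which cross-links collagen, differed by 1.35 (SE 0.71) and by 0.26 without hIAPP-TgxBACE2-KO replicate 2. With the stellate covariate, limma called 0 genes, 673 (5.25%) had an unadjusted p under 0.05 and the smallest adjusted p was 0.0582. In that fit Rbm45 differed by -1.51 and Timmdc1 by 1.11. The covariate itself differs between the groups, and its part in the called genes was not tested beyond these values.

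Macrophage and myeloid genes were higher in 14 of 18 with a median of 0.26 and 0 calls (1 at an unadjusted p under 0.05), but the direction turned on single arrays. Their mean level was 5.55, 6.59 and 6.06 in hIAPP-TgxBACE2-KO arrays and 6.01, 5.87 and 5.63 in wild type arrays, and the median was -0.09 without hIAPP-TgxBACE2-KO replicate 2, 0.57 without replicate 1, 0.09 without wild type replicate 3 and -0.12 with the stellate covariate. Laptm5, a lysosomal protein of blood cells, differed by 0.64 (SE 0.25, adjusted p = 0.497), and the macrophage marker Cd68 by 0.53. Of 6 lymphocyte genes that passed the filter out of 15 listed, 3 were higher, with a median of -0.03. Endothelial genes (7 of 16 higher, median -0.01), Schwann cell and neuron genes (5 of 8 higher, median 0.09), adipocyte and lymph node genes (0 of 3 higher, median -0.17) and erythroid genes (1 of 2 higher) held 0 called genes and 0 at an unadjusted p under 0.05, as did the lymphocyte list.

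Acinar transcripts spread widely within each group. Of 20 acinar genes, 18 were lower with a median of -0.29, and 0 were called or had an unadjusted p under 0.05. Their mean level was 10.23, 9.98 and 9.40 in hIAPP-TgxBACE2-KO arrays and 11.08, 10.57 and 8.73 in wild type arrays, and the median was 0.21 without wild type replicate 1 and -1.06 without wild type replicate 3. It was -0.06 without hIAPP-TgxBACE2-KO replicate 3 or wild type replicate 2, and -0.47 without hIAPP-TgxBACE2-KO replicate 1. Ctrl, a chymotrypsin-like protease gene, read 10.24, 9.20 and 9.31 in hIAPP-TgxBACE2-KO arrays and 11.34, 10.66 and 8.93 in wild type arrays. Of 13 duct cell genes, 10 were higher with a median of 0.18 and 0 at an unadjusted p under 0.05, and the median was 0.01 without hIAPP-TgxBACE2-KO replicate 2, 0.00 without wild type replicate 3 and -0.11 with the stellate covariate. The acinar median was -0.81 in that fit.

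**Figure D5:**
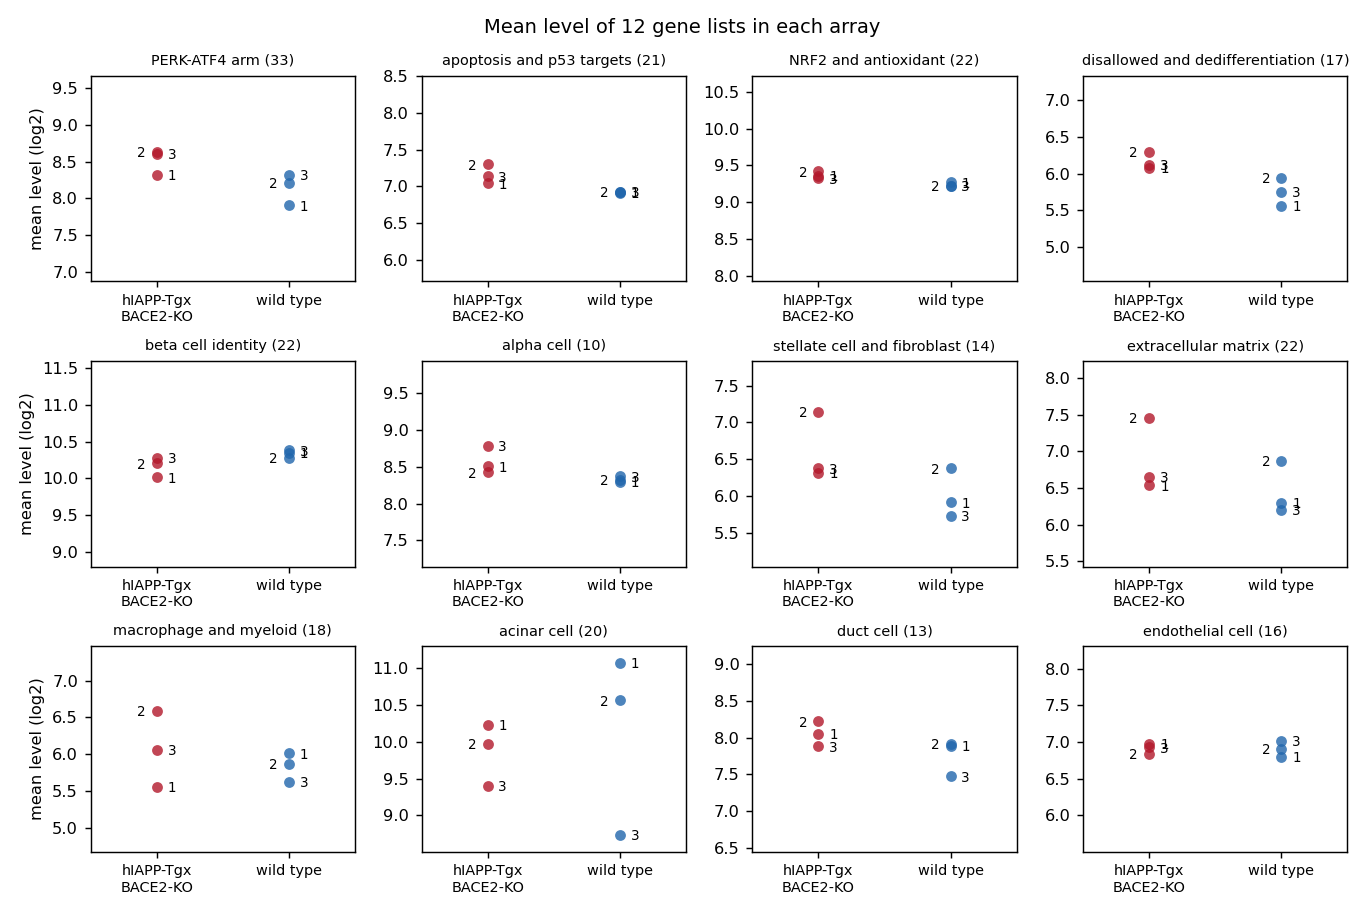
Mean level (log2) of 12 gene lists in each of the 3 hIAPP-TgxBACE2-KO and 3 wild type arrays; numbers beside the points are replicates, the number of tested members stands in parentheses, and every panel spans the same height on the log2 scale. Apoptosis and p53 targets lie at 7.04 to 7.30 in hIAPP-TgxBACE2-KO and 6.91 to 6.93 in wild type islets, while acinar genes spread from 8.73 to 11.08 within wild type.

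Interferon-stimulated and inflammatory genes were higher in most members and MHC class I genes lower in most, without a call. Of 25 interferon-stimulated genes, 21 were higher with a median of 0.14 and 1 at an unadjusted p under 0.05, and the median was 0.39 without hIAPP-TgxBACE2-KO replicate 1, 0.31 without wild type replicate 3 and -0.04 with the stellate covariate. The antiviral genes Mx2 and Rsad2 differed by 0.53 (adjusted p = 0.478) and 0.50 (adjusted p = 0.645). The 1 member at an unadjusted p under 0.05 was Mx2, which lies near Bace2 on chromosome 16, as given above. Of 30 inflammatory and NF-kB genes, 27 were higher with a median of 0.21 (0.36 without hIAPP-TgxBACE2-KO replicate 3 and 0.14 without wild type replicate 3), and -0.13 with the stellate covariate. The inflammasome gene Nlrp3 differed by 0.44 (adjusted p = 0.324) at levels near the filter, and the interleukin-1 receptor gene Il1r1 read 10.66, 10.82 and 10.91 in hIAPP-TgxBACE2-KO arrays and 11.14, 11.08 and 11.18 in wild type arrays, a difference of -0.34 (adjusted p = 0.523). Of 10 genes of MHC class I and antigen presentation, 9 were lower with a median of -0.07 (-0.28 with the stellate covariate), and of 5 MHC class II genes 3 were higher with a median of 0.03, with 0 at an unadjusted p under 0.05 in either list.

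Metabolic lists held 3 of the called genes, while 0.133% of all genes tested were called. The lists were chosen with earlier results of these data known, so this count only describes them. Of 24 glycolysis and hypoxia genes, 21 were higher with a median of 0.32, which was 0.10 without wild type replicate 1, 0.52 without wild type replicate 3 and 0.19 with the stellate covariate, and Ppp1r3b was the called member. Of 33 oxidative phosphorylation genes, 18 were higher with a median of 0.01, and Timmdc1 was called while the subunits of complex II Sdha and Sdhc differed by -0.21 (adjusted p = 0.373) and -0.28 (adjusted p = 0.548). Of 22 genes of fatty acid and lipid metabolism, 11 were higher and 11 lower with a median of 0.00, and Star was called. Cpt1c, a brain-type carnitine palmitoyltransferase, differed by 0.60 (SE 0.15, adjusted p = 0.264), the malic enzyme gene Me1 by 0.22 and the mitochondrial Cpt2 by -0.31. Of 16 cholesterol synthesis genes, 13 were higher with a median of 0.22 and 3 at an unadjusted p under 0.05, among them Cyp51, a sterol demethylase, at 0.42 (adjusted p = 0.499). That median was 0.10 without wild type replicate 1 and 0.38 without wild type replicate 2.

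The remaining lists had 0 called members. Amino acid transport genes were higher in 15 of 19 with a median of 0.22 (0.14 without hIAPP-TgxBACE2-KO replicate 3 and 0.15 without wild type replicate 3). Slc7a1, Slc7a3, Slc7a5, Slc7a11 and Slc3a2 are listed there and in the PERK-ATF4 arm, so the 2 lists are not independent. Slc43a2, a carrier of large neutral amino acids, went against the list at -0.34 (adjusted p = 0.368), while Slc7a3 is given above. Immediate early genes were higher in 17 of 21 with a median of 0.29 (0.10 without hIAPP-TgxBACE2-KO replicate 2, 0.46 without replicate 1 and 0.03 with the stellate covariate), with Fosl2 at 0.43 and the nuclear receptor gene Nr4a1 at 0.45. Proliferation genes were lower in 15 of 24 with a median of -0.05, which was 0.01 without hIAPP-TgxBACE2-KO replicate 1 and -0.11 without replicate 2. In that list Mcm6, a subunit of the replicative helicase, read 7.02, 6.84 and 6.91 in hIAPP-TgxBACE2-KO arrays and 7.54, 7.57 and 7.58 in wild type arrays, a difference of -0.64 (SE 0.15, adjusted p = 0.237), and stood at -0.12 in hIAPP-Tg and -0.90 in BACE2-KO islets. Lysosome and autophagy genes split 12 and 12 with a median of 0.00, and semaphorin, plexin and neuropilin genes were lower in 16 of 28 with a median of -0.04, with Sema4b at -0.33 and Sema3g at 0.36.

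Technical and background lists were read last. Ribosomal protein genes were higher in 18 of 20 with a median of 0.09. Genes known to vary between mouse strains were higher in 11 of 15 with a median of 0.22 (0.07 without hIAPP-TgxBACE2-KO replicate 3 and 0.14 without wild type replicate 1), 2 at an unadjusted p under 0.05 and 0 called. Tmem87a, of that list, read 8.74, 8.40 and 8.32 in hIAPP-TgxBACE2-KO arrays and 7.71, 7.49 and 7.54 in wild type arrays, a difference of 0.91 (SE 0.34, adjusted p = 0.487), and stood at -0.80 in hIAPP-Tg and 0.79 in BACE2-KO islets. Pttg1, a securin known to be variable between strains, read 9.83, 9.81 and 9.62 in hIAPP-TgxBACE2-KO arrays and 9.97, 9.74 and 5.32 in wild type arrays, so 1 wild type array stood apart, and its difference of 1.41 was -0.10 without wild type replicate 3. Of 4 Y-linked and Xist genes 0 were called, and the Y-linked Kdm5d differed by -0.29 (adjusted p = 0.571).

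Leaving out 1 array moved several other uncalled values named above by over 1.5 times. Without hIAPP-TgxBACE2-KO replicate 1, Insr stood at -0.19, Aplp1 at -0.13 and Sod1 at 0.10. Without hIAPP-TgxBACE2-KO replicate 2, Insr stood at -0.56, Ddit4 at 0.35, Hk2 at 0.51, Laptm5 at 0.39, Cd68 at 0.33 and Slc30a8 at -0.16. Pou3f4 was 0.32, Fgf21 0.23, Vldlr 0.08 and Aplp1 -0.38 without hIAPP-TgxBACE2-KO replicate 3. Without wild type replicate 1, Chac1 stood at 0.28, Cyp51 at 0.19, Eif4ebp1 at 0.28, Cpt2 at -0.19, Pyy at -0.07 and Cd68 at 0.32. Rab27a was -0.13 and Rsad2 0.30 without wild type replicate 2, and Slc7a11 0.13 and Cd68 0.81 without wild type replicate 3. These genes kept their direction in those fits.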

How the data were processed

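Islet RNA was measured on Affymetrix mouse arrays from biotinylated cRNA, per the labels' protocols. The deposited values are log2 levels of each probe set, which the authors made by RMA in affy, per the submitters' processing notes. Software versions and a genome build are not given there or in the labels. Arrays hold no read depth, and their number limits the precision. RMA removes background and normalizes between arrays, so shifts common to all genes are lost, and low levels are compressed.

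Of 45141 probe sets, 28898 named 1 gene, 551 several, and 15692 are unnamed here. Each gene was represented by its one-symbol probe set of highest mean over the 12 arrays, and those whose mean fell below percentile 25 (a level of 3.43) were dropped. A mean for each of the 4 genotypes was fitted to all 12 arrays (8 residual degrees of freedom) with limma 3.58.1 in R 4.3.3, by lmFit and eBayes with a variance trend. A gene counted as called when its two-sided p, adjusted by Benjamini-Hochberg over all genes tested, was under 0.05. The same steps were tested on simulated data. Tables and plots used Python 3.11.15, pandas 2.3.3 and matplotlib 3.10.9. Chromosomes, gene order and promoters came from RefSeq (GRCm38.p6).

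The genes named were Bace2, Ins2 and Gcg, every called gene, the 10 uncalled genes of smallest p, and up to 6 members of each list by p, with exceptions stated where they occur. The members and lists were chosen with earlier results of these data known. Alternatives were the filter, the choice of probe set, median centring, quantile normalization, robust eBayes, no variance trend, array weights, only the 6 arrays compared, the replicate number as a block, acinar and stellate covariates, other thresholds, genes on chromosomes 8 and 16 left out, and each array left out.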

Additional observations from a re-analysis of the deposited data

Results flagged for a closer look

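The interaction of both genetic changes was called for Sema5a alone among the genes tested, at -5.11 log2 (SE 0.45, adjusted p = 0.000722). Its level was 3.60 ± 0.09 (SD, n = 3) in hIAPP-TgxBACE2-KO islets, 8.19 in hIAPP-Tg islets, 4.03 in BACE2-KO islets and 3.52 ± 0.10 in wild type islets. The result concerns all 4 genotypes and does not show in hIAPP-TgxBACE2-KO against wild type, where the difference was 0.08.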

How the results depend on the processing

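The 17 calls (9 higher, 8 lower) became 7 (5 and 2) with a filter at the 50th percentile, 11 (6 and 5) without a variance trend, 4 (2 and 2) in a fit of only the 6 arrays, 34 (19 and 15) with array weights, 9 (6 and 3) at a difference of at least 1 log2, and, in fits added after the data were seen, 0 (0 and 0) with the stellate covariate and 9 (3 and 6) without genes on chromosomes 8 and 16. The replicate number as a block gave 27 (14 and 13), with all 17 genes kept. Deviations of same-numbered hIAPP-TgxBACE2-KO and wild type arrays correlated at 0.088, 0.137 and 0.272. Over same-numbered pairs of all groups the range was -0.129 to 0.372. No value for differently numbered pairs is given here, and whether the number marks a shared batch was not tested. With 1 array left out, counts ran from 0 to 18 in all, 0 to 9 higher and 0 to 10 lower. Of 430 refitted differences of the 17 genes none reversed, 268 kept their call and 162 lost it. Of 93 uncalled genes the text names, these reversed: Sema5a (-0.0042 as a mean of probe sets, -0.14 on the set of highest variance, -0.077 with the stellate covariate), Slc2a2 (0.021), Mfap5 (-0.042) and Lox (-0.42) with the stellate covariate, Sod1 (-0.01) and Cacna1d (0.11) on the set of highest variance, Pttg1 (-0.10 without wild type replicate 3 to 2.22 without wild type replicate 1), and Nupr1 (0.013 with the acinar covariate, and -0.56 to 0.24 with 1 array left out). Mfap5 is a member of the stellate list whose mean is that covariate, so its shift in that fit is partly built in. The causes were not tested. Of 1038 refitted list medians, 36 moved beyond the spread between arrays, 12 of them with the stellate covariate. Of 40 lists, 21 had a median of the other sign in some refit, 13 of them with a median within 0.1 of 0. With 3 arrays a group, and levels near the filter for Tex15, Ghrl and Mrap2, small differences and the size of large ones are not resolved.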

Other observations

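Several of the largest differences were not called, and the genes below were chosen after their values were seen. Cldn11, a tight junction claudin, read 6.19, 7.68 and 4.31 in hIAPP-TgxBACE2-KO arrays and 3.12, 3.16 and 2.99 in wild type arrays, a difference of 2.97 (SE 0.95, adjusted p = 0.36). Its mean was 4.40 in hIAPP-Tg and 6.41 in BACE2-KO islets. Tmem179 read 6.28, 7.58 and 6.72 in hIAPP-TgxBACE2-KO arrays and 4.77, 4.80 and 5.15 in wild type arrays, and Ccnb1ip1, a meiotic ubiquitin ligase, read 5.10, 4.28 and 6.35 in hIAPP-TgxBACE2-KO arrays and 3.09, 3.34 and 3.13 in wild type arrays. In the other direction, the water channel gene Aqp4 differed by -1.97 (adjusted p = 0.265) and Rpgrip1, a ciliary protein of photoreceptors, by -1.86 (adjusted p = 0.258). These 5 genes were separated between the groups and spread more widely among the hIAPP-TgxBACE2-KO arrays than among the wild type arrays. Tmem179, Ccnb1ip1, Aqp4 and Rpgrip1 differed from wild type by 2.10, 1.60, -2.41 and -1.94 in BACE2-KO islets, with SDs of 0.86 to 1.28 there. In hIAPP-Tg islets they differed by -0.14, 0.11, 0.12 and 0.07. The differences and the wide spread were thus not particular to the combination.

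A set of epithelial and inflammation-linked genes was high on 1 array. In hIAPP-TgxBACE2-KO replicate 2, the aspartyl protease gene Ctse read 9.54 against 4.93 and 5.03 in the other two, and 4.20, 5.01 and 3.70 in wild type arrays. Sprr2a1, a cornified envelope gene, read 9.85 there against 4.71 and 4.64, and 4.08, 4.72 and 3.99 in wild type arrays. Reg3a, a secreted lectin, read 8.76 there against 3.87 and 3.56, and 4.14, 3.63 and 3.26 in wild type arrays. Its relative Reg3b read 11.80 there against 8.99 and 5.80, and 9.17, 7.15 and 3.69 in wild type arrays. The same array had the highest means of the stellate, extracellular matrix, macrophage and duct cell lists in the comparison.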
